A study of Mus musculus with 43 samples.

Results

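The diacylglycerol kinase (DGK) family was examined in a pooled CRISPR knockout screen of metabolic genes in transferred CD8+ T cells. The members are the library genes whose symbol is Dgk followed by a single letter, namely *Dgka*, *Dgkb*, *Dgkd*, *Dgke*, *Dgkg*, *Dgkh*, *Dgki*, *Dgkk*, *Dgkq* and *Dgkz*. They make up 10 of the 2078 genes of the library, and their 50 single guide RNAs (sgRNAs), 5 for each gene, are among 10640 sgRNAs in all. The question asked of them was whether *Dgkz* stood apart from its 9 paralogues, sgRNA by sgRNA, in each organ and under each treatment.

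DGKs are lipid kinases that phosphorylate diacylglycerol to phosphatidic acid. In T cells, the T cell receptor activates phospholipase Cγ1, which releases diacylglycerol from a membrane phosphoinositide, and diacylglycerol recruits RasGRP1 and protein kinase Cθ, so a DGK that removes it dampens the signal. The α and ζ isoforms, encoded by *Dgka* and *Dgkz*, are the best known in T cells. The isoforms fall into 5 types by domain structure. Calcium-binding EF hands mark *Dgka*, *Dgkb* and *Dgkg*, a pleckstrin homology domain marks *Dgkd*, *Dgkh* and *Dgkk*, *Dgke* encodes the small isoform that prefers arachidonoyl diacylglycerol, *Dgkz* and *Dgki* encode the isoforms with ankyrin repeats, and *Dgkq* stands alone.

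OT-I T cells, which recognize a peptide of ovalbumin, came from mice that also carry Cas9 at the *Rosa26* locus, and were transduced with the lentiviral library and selected for its CD90.1 mark. They were given by adoptive cell transfer (ACT) to Rosa26-Cas9 recipients bearing orthotopic KPC_OVA tumours, a pancreatic ductal adenocarcinoma line that expresses ovalbumin, and treatment with anti-PD-1 or IgG began on the same day. CD90.1+ cells were sorted 7 days after ACT from primary tumour, lung, liver, peritoneal metastases, spleen, draining lymph nodes and nondraining lymph nodes, which gives 14 groups, and cells kept on the day of transfer (T0) were the reference. All groups, T0 included, held Cas9 and the whole library. A library value is the representation of an sgRNA among sorted cells. It does not tell whether the gene was cut, and the animals behind each library are not given in the sources used here, so p-values measure the spread between libraries.

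Of 43 samples, 41 libraries had values, with 3 libraries in T0 and in most groups, 2 in liver IgG and in peritoneal metastases IgG, and 1 in liver anti-PD-1. Peritoneal metastases anti-PD-1 replicate 2 bears spleen as its tissue label and was used by its title. The lymph node libraries stood apart. Between 8.42% and 54.6% of all sgRNAs there exceeded a lowest value that several libraries of a replicate number share, against 57.4% to 97.2% in the other organs and nearly all in T0. Lung IgG replicate 1, at 57.4%, was the lowest outside the nodes, and the part of detection in the results below was not tested. For the level of a gene, its 5 sgRNAs were averaged on the log2(value + 1) scale and the median that the 250 nontargeting sgRNAs had in the same library was subtracted. Changes are differences of these levels. With a pseudocount of 1 they are smaller than the true change where an sgRNA is low. Changes were tested with limma and adjusted by Benjamini-Hochberg over all 2078 genes, with 0.05 as the threshold, and a gene past it is called higher or lower.

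Outside the lymph nodes, *Dgkz* sgRNAs were over-represented in 4 of 5 organs after ACT, and the change in the liver had the same sign without passing the threshold. No paralogue was called higher in any of the 5. Between 0.144% and 0.241% of all genes were called higher in these organs, so the paralogues were near that share. In T0 the 3 libraries had *Dgkz* levels of 0.24, −0.23 and −0.46. In the primary tumour they were 1.20, 1.65 and 0.94 under IgG and 1.42, 1.96 and 0.98 under anti-PD-1, all above T0. In the lung they were 0.083, 1.87 and 1.02 under IgG and 1.89, 1.14 and 2.35 under anti-PD-1. Lung IgG replicate 1 lay within the range of T0, and it was the single exception among 26 libraries.

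The liver had *Dgkz* levels of 1.63 and 1.20 under IgG and 0.65 under anti-PD-1. Peritoneal metastases had 1.77 and 0.62 under IgG and 1.82, 0.58 and 2.05 under anti-PD-1, and the spleen had 0.87, 1.63 and 1.87 under IgG and 1.73, 2.04 and 1.19 under anti-PD-1. All of these libraries were above T0. *Dgkz* thus exceeded every T0 library in 25 of 26 libraries, and 3 of 2078 genes did so in at least as many. Without the library whose title and tissue label disagree the count was 24 of 25. The share of all genes above every T0 library in all 26 was 0.0962%.

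As the mean over the 5 organs, *Dgkz* rose by 1.48 against T0 (SE 0.43, limma adjusted p = 0.00929) and ranked 3 among all genes. Only 4 genes, 0.192% of all, were called higher there. The others were *Pik3cd* at 2.56 and *Pik3r1* at 1.81, a catalytic and a regulatory subunit of phosphoinositide 3-kinase, and *B3gnt2*, a glycosyltransferase, at 1.33. The median change of all genes was −0.55. The call for *Dgkz* ended without T0 replicate 2 (adjusted p = 0.0649), without T0 replicate 3 (0.102), with all 41 libraries in a single limma fit (0.260) and with the values as deposited (change 0.90, adjusted p = 0.126). Libraries of the same treatment and replicate number deviated together (34 of 41 pairs correlated above 0.1), and with each such set as a random block the change was 1.47 (adjusted p = 0.0127). The call also held in the 26 other fits that left out a library.

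By organ, *Dgkz* rose by 1.50 in the primary tumour (SE 0.49, limma adjusted p = 0.0301), by 1.54 in the lung (SE 0.49, adjusted p = 0.0149), by 1.49 in peritoneal metastases (SE 0.51, adjusted p = 0.0407) and by 1.71 in the spleen (SE 0.49, adjusted p = 0.0107). In these organs 0.144% of genes were called higher, and 0.241% in the spleen. The liver, with 3 libraries, had a change of 1.18 that did not pass (SE 0.58, adjusted p = 0.295; 0.144% of genes called higher). *Dgkz* ranked between 2 and 3 of all genes in the 4 organs with a call and 9 in the liver. Leaving out T0 replicate 2 or 3 ended all 4 organ calls (adjusted p between 0.0550 and 0.199), as did the values as deposited and a single fit of all libraries. The primary tumour call also ended without replicate 2 of its IgG (0.0743) or anti-PD-1 (0.0806) libraries. The call in peritoneal metastases ended without T0 replicate 1 (0.0570), its IgG replicate 2 (0.211), its anti-PD-1 replicate 1 (0.0821) or 3 (0.0883), or replicate 1 of the primary tumour under IgG (0.0511) or anti-PD-1 (0.0503). Without peritoneal metastases anti-PD-1 replicate 2, whose labels disagree, the change was 1.71 in that organ (adjusted p = 0.0158) and 1.53 over the 5 organs (adjusted p = 0.00553). These comparisons share the T0 libraries and so are not independent of each other.

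In the single groups outside the nodes the change of *Dgkz* ranged from 0.80 in liver anti-PD-1 to 1.95 in lung anti-PD-1. It was called higher in 3 of 10 groups. These were lung anti-PD-1 (adjusted p = 0.00906; 0.144% of genes called higher), peritoneal metastases anti-PD-1 (1.63, adjusted p = 0.0443; 0.144%) and spleen anti-PD-1 (1.80, adjusted p = 0.0225; 0.289%). The first was called whichever of 29 libraries was left out, the second in 17 of 29 such fits and the third in 25 of 29, with adjusted p up to 0.183 and 0.110. Without the library whose labels disagree, the change in peritoneal metastases anti-PD-1 was 2.08 (adjusted p = 0.0164), and primary tumour anti-PD-1 (1.60, adjusted p = 0.0459) and spleen IgG (1.61, adjusted p = 0.0435) passed as well. Under 11 other settings these 3 calls were kept in 9, 6 and 7. The changes in the remaining groups were 1.41 and 1.60 in the primary tumour under IgG and anti-PD-1, 1.14 in lung IgG, 1.56 in liver IgG, 1.34 in peritoneal metastases IgG and 1.61 in spleen IgG, with limma adjusted p between 0.0538 and 0.223.

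The 5 *Dgkz* sgRNAs, s_07376 to s_07380, all pointed the same way, although none passed the threshold alone as the mean over the 5 organs. Their changes there were 1.45 for s_07376, 1.49 for s_07377, 2.01 for s_07378, 1.04 for s_07379 and 1.44 for s_07380, with limma adjusted p between 0.203 and 0.871 over 10640 sgRNAs. In that comparison 0.0658% of all sgRNAs were called higher and 8.52% lower. Each of the 5 was above 0 in at least 9 of the 10 groups outside the nodes, as were 2.82% of all sgRNAs, 3.6% of nontargeting sgRNAs and 0 of the 45 paralogue sgRNAs. The cut of 9 is the lowest count among the 5, and the paralogue sgRNAs s_08423 of *Dgkb* and s_01018 of *Dgka* reached 8. All these groups share the T0 libraries, so counts over them are not independent. Over sgRNAs and groups, 47 of 50 *Dgkz* values were above 0 against 166 of 450 for the paralogues (36.9%) and 33.3% for all sgRNAs. The exceptions were s_07377 in lung IgG at −1.19 and s_07378 and s_07379 in liver anti-PD-1 at −0.15 and −1.17.

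Each *Dgkz* sgRNA exceeded its highest T0 library in 22 or 23 of the 26 libraries, where the median of all sgRNAs was 8. The highest count was 21 among paralogue sgRNAs (s_08423 of *Dgkb*), 21 among nontargeting sgRNAs and 26 among all sgRNAs. The share of all sgRNAs that reached 22 was not computed. As deposited signal, s_07378 had 466, 333 and 134 in T0, 771, 744 and 1244 in primary tumour IgG, 742, 761 and 120 in primary tumour anti-PD-1, and 1569, 1316 and 3141 in lung IgG. Of the *Dgkz* sgRNAs it alone was called by limma in any organ or group outside the nodes, in the lung (2.89, limma adjusted p = 0.0497; 0.0658% of sgRNAs called higher) and in lung IgG (3.50, adjusted p = 0.0373; 0.047%). In other libraries a different sgRNA led. In peritoneal metastases anti-PD-1, s_07376 had 2535, 195 and 4176 against 330, 222 and 162 in T0. In primary tumour anti-PD-1, s_07380 had 660, 2125 and 2595 against 378, 254 and 172 in T0. Leaving any of the 5 out of the gene mean kept the change of *Dgkz* over the 5 organs between 1.35 and 1.60 and past the threshold, but it ended organ calls. Without s_07378 the primary tumour (adjusted p = 0.0555), the lung (0.0760) and peritoneal metastases (0.102) missed, without s_07380 the primary tumour did (0.111), and without s_07376 or s_07377 peritoneal metastases did (0.0866 and 0.0575).

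The paralogues spread around and below the bulk of the library. As the mean over the 5 organs, their changes ran from 0.15 for *Dgka* to −1.31 for *Dgkd*, with a median of −0.75 beside −0.55 for all genes. None was called higher, where 0.192% of all genes were. *Dgkq* was called lower at −1.30 (SE 0.44, limma adjusted p = 0.0323), where 17.7% of all genes were called lower. That call ended when any T0 library was left out (adjusted p up to 0.139), in a single fit of all libraries, with log2(value + 10), with the median over sgRNAs, without low sgRNAs and with 2 other centrings, and s_07802, 1 of its sgRNAs, had a T0 signal of at most 22.0. Of their 45 sgRNAs, 10 (22.2%) had a change above 0, as did 22.1% of all sgRNAs, and 0 were called in either direction by limma.

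Among the EF-hand isoforms, *Dgka*, the other DGK best known in T cells, ranked 64 of all genes at 0.15 (adjusted p = 0.869). Its T0 levels were 1.10, 0.76 and 0.42, and 11 of 26 libraries were above all of them. Of 2078 genes, 251 were above every T0 library in at least as many. *Dgkb* had a change of −0.46 and *Dgkg* of −1.01. Among the isoforms with a pleckstrin homology domain, *Dgkk* stood at −0.043, *Dgkh* at −0.85 and *Dgkd* at −1.31 (adjusted p = 0.0636). *Dgkd* was below every T0 library in all 26 libraries, as were 16.2% of all genes, and its T0 levels differed little, from −0.31 to −0.19. *Dgke* had a change of −0.75. *Dgki*, the isoform of the same type as *Dgkz*, had a change of −0.18 (adjusted p = 0.793), and 7 of 26 libraries were above T0. At least as many were for 743 of 2078 genes. The sgRNAs of a gene scattered widely in several cases. For *Dgkb*, s_08423 was at 0.97 and s_08424 at −1.73, and for *Dgkh*, s_09811 was at 0.38 and s_09814 at −2.47.

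Across the 10 groups outside the nodes the paralogues crossed 0 to different degrees. *Dgka* was between −0.38 in lung IgG and 0.55 in peritoneal metastases IgG, and *Dgki* between −0.86 in liver anti-PD-1 and 0.26 in liver IgG. *Dgkk* ranged from −1.53 in lung IgG to 1.40 in liver anti-PD-1, a group of 1 library. *Dgkd* and *Dgkq* were below 0 in all 10 groups, with *Dgkd* between −0.42 in primary tumour IgG and −3.55 in lung anti-PD-1 and *Dgkq* between −0.59 in primary tumour IgG and −2.04 in lung IgG. With values as deposited the mean of *Dgka* over the 5 organs was below 0, at −0.44, and *Dgki* and *Dgkk* were above 0 with centring on all sgRNAs or on the nontargeting mean.

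The lung had the largest losses among the paralogues. *Dgkd* fell by 2.74 (SE 0.56, limma adjusted p = 0.000229), *Dgkg* by 2.63 (SE 0.65, adjusted p = 0.00176) and *Dgkq* by 1.58 (SE 0.50, adjusted p = 0.0149). All genes shifted there, with a median change of −1.21 and 35.4% called lower, so 3 of 9 paralogues called lower was close to the background. *Dgkd* had levels of −0.69, −4.14 and −1.64 in lung IgG and −3.11, −4.01 and −4.26 in lung anti-PD-1. *Dgkg* had −2.25, −5.52 and −3.97 in lung IgG and −2.34, −1.10 and −2.43 in lung anti-PD-1, against −0.64, −0.42 and 0.13 in T0. The *Dgkd* call held under each of 11 other settings and without any single library. The *Dgkg* call held without any library but ended with centring on the nontargeting mean (−1.63, adjusted p = 0.0872) and with the median over sgRNAs (−2.25, adjusted p = 0.264). The *Dgkq* call ended without any T0 library (adjusted p up to 0.0556) and was kept under 4 of 11 other settings, with a change as small as −0.58 (adjusted p = 0.562, nontargeting mean). In lung IgG, *Dgkd*, *Dgke*, *Dgkg* and *Dgkq* were called lower (38.2% of all genes), and in lung anti-PD-1 *Dgkd* was (27.3%).

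Elsewhere outside the nodes paralogue calls were few. In peritoneal metastases *Dgkq* fell by 1.53 (adjusted p = 0.0401), where 16.5% of all genes were called lower. That call ended without any T0 library, without IgG replicate 2 or without anti-PD-1 replicate 2 or 3 of that organ (adjusted p up to 0.199), and it was kept under 4 of 11 other settings (change as small as −0.88, adjusted p up to 0.585). In spleen anti-PD-1 *Dgkd* fell by 1.91 (adjusted p = 0.0402; 15.6% of genes called lower). In the primary tumour and the liver no paralogue was called by limma. At the level of single sgRNAs, 4 of 45 were called lower in a lung group, namely s_08424 of *Dgkb* and s_07764 of *Dgkg* in lung IgG (12.6% of sgRNAs called lower) and s_08676 of *Dgkd* and s_04539 of *Dgke* in lung anti-PD-1 (10.7%).

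To compare *Dgkz* with its paralogues without any centring, the mean level of the other 9 genes was subtracted from that of *Dgkz* in each library. In T0 this difference was −0.28 ± 0.38 (SD, n = 3 libraries). It was 1.37 ± 0.43 in the primary tumour (n = 6), 2.71 ± 0.70 in the lung (n = 6), 1.41 ± 0.47 in the liver (n = 3), 1.72 ± 0.55 in peritoneal metastases (n = 5) and 2.21 ± 0.66 in the spleen (n = 6). No library of these organs overlapped with T0, whose highest value was 0.12. The lowest in an organ was 0.87. How many other genes of the library would separate like this from the same 9 genes was not counted.

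Against T0 the difference rose by 1.64 in the primary tumour, 2.99 in the lung, 1.69 in the liver, 1.99 in peritoneal metastases and 2.48 in the spleen. Part of this is the fall of the paralogues, whose median centred change was −1.58 in the lung and −0.94 in the spleen. The median of all genes there was −1.21 and −0.58, and *Dgkz* itself rose by 1.54 and 1.71. The two-sided exact permutation test over libraries gave p = 0.0238 in the primary tumour, lung and spleen, which is the smallest it can give with 6 against 3 libraries (adjusted over 7 organs, p = 0.0417). In peritoneal metastases the exact p was 0.0357 (adjusted p = 0.05), and in the liver 0.1, again the smallest possible. With the median over sgRNAs in place of the mean no organ passed (adjusted p at least 0.0556). The exact p stayed at its smallest, 0.0238, in the primary tumour, lung and spleen. Its adjustment over 7 organs grew because nondraining nodes dropped out (adjusted p of the exact test = 0.381). With 2 T0 libraries no organ passed after adjustment, and in peritoneal metastases no call held when any library was left out. With so few libraries the exact test cannot go below 0.05 in these fits, even before adjustment. Whether the difference depends on any of the libraries left out there was therefore not tested. In single groups of 3 against 3 libraries the exact test cannot go below 0.1, and no group passed.

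*Dgkz* was compared with each paralogue in turn as well. The change of *Dgkz* exceeded that of *Dgka* by 1.34, of *Dgkk* by 1.53, of *Dgki* by 1.67, of *Dgkb* by 1.95, of *Dgke* by 2.24, of *Dgkh* by 2.34, of *Dgkg* by 2.49, of *Dgkq* by 2.79 and of *Dgkd* by 2.80, as means over the 5 organs. The *Dgkz* minus *Dgka* difference was above T0 in 26 of 26 libraries, and the lowest count over the 9 paralogues was 24 of 26. In 23 of 26 libraries *Dgkz* had the largest change of the family, and in the other 3 the second largest. *Dgkk* led in primary tumour anti-PD-1 replicate 3 and in liver anti-PD-1 replicate 3, and *Dgkg* in peritoneal metastases anti-PD-1 replicate 2, the library whose title and tissue label disagree. The share of all genes that reach such counts against these paralogues was not computed.

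In the lymph nodes most genes had a change above 0 against the T0 mean after centring, 95.8% in draining and 94.8% in nondraining nodes, with a median change of 2.10 and 1.52. With centring on the nontargeting mean these medians were −0.14 and −0.19. Most sgRNAs there, nontargeting ones included, were at their lowest value. *Dgkz* had levels of 5.68, 5.64 and 6.91 in draining nodes under IgG and 0.85, 3.76 and 5.78 under anti-PD-1. In nondraining nodes they were 2.28, 2.15 and 4.15 under IgG and 2.64, 6.23 and 6.67 under anti-PD-1. All 12 libraries were above every T0 library, as were those of 6.4% of all genes. *Dgkz* rose by 4.92 in draining nodes (SE 0.83, limma adjusted p = 7.89e-05; 51.7% of genes called higher) and by 4.17 in nondraining nodes (SE 0.83, adjusted p = 0.00247; 7.07% called higher), ranking 13 and 6 of all genes. With the values as deposited the changes of *Dgkz* were −2.33 and −3.19 and those of the median gene −5.15 and −5.83. *Dgkz* was then called lower in both (limma adjusted p = 0.00349 and 0.000114), as were 99.7% and 100% of genes when rounded (2072 and 2077 of 2078), and in 3 of the 4 nodal groups. A centring moves all genes of a library alike, so it cannot alter the distance of *Dgkz* above the median of all genes, 2.82 and 2.65. The call in draining nodes ended when the fit held only those libraries and T0 (adjusted p = 0.0638). The call in nondraining nodes ended there too (0.290), with centring on the nontargeting mean (2.45, adjusted p = 0.138) and with the median over sgRNAs (2.85, adjusted p = 0.998). In the single nodal groups it was called higher in draining nodes under IgG (6.23; 35% of genes called higher) and anti-PD-1 (3.61; 28.2%) and in nondraining nodes under IgG (3.01; 6.74%) and anti-PD-1 (5.33; 8.95%). The draining anti-PD-1 call ended without replicate 3 of that group (2.45, adjusted p = 0.125), and the nondraining IgG call was kept in 20 of 41 fits that left out a library. Under 10 other settings the 4 group calls were kept in 9, 6, 5 and 7, in that order.

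As a pool, the *Dgkz* sgRNAs were detected more often in the nodes than those of the paralogues, but not each of them. Of 60 *Dgkz* values there, 38 (63.3%) exceeded the shared lowest value, against 134 of 540 for the paralogues (24.8%), 27.9% for nontargeting sgRNAs and 28.2% for all sgRNAs. These counts do not depend on centring. By sgRNA, s_07378 exceeded the shared lowest value in 12 of 12 nodal libraries, s_07380 in 10 and the other *Dgkz* sgRNAs in 4 to 6. Paralogue sgRNAs did so in 0 to 9, with 9 for s_09640 of *Dgki* and 8 for s_09758 of *Dgkk*. Few sgRNAs carried the gene level. In nondraining nodes s_07378 exceeded it in all libraries, with signals of 2587, 2169 and 1251 under IgG and 6946, 3752 and 1235 under anti-PD-1, where it rose by 10.51 (limma adjusted p = 0.000214; 0.573% of sgRNAs called higher). In the same libraries s_07376 was at most 2.11. In draining nodes s_07380 had 951, 987 and 930 under IgG and 6.29, 724 and 411 under anti-PD-1, and rose by 7.71 (adjusted p = 0.00235; 2.31% called higher). By treatment, s_07378 was called in nondraining IgG (10.13; 1.31% called higher) and anti-PD-1 (10.90; 1.03%), and s_07380 in draining IgG (9.22; 4.54%) and anti-PD-1 (6.21; 3.46%). s_07378 made up 99.7% and 99.8% of the *Dgkz* signal in nondraining IgG replicates 1 and 2.

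The *Dgkz* minus paralogue difference rose by 3.21 in draining nodes (exact permutation p = 0.0476, adjusted p = 0.0556) and by 2.59 in nondraining nodes (exact p = 0.0238, adjusted p = 0.0417). Draining anti-PD-1 replicate 1, at −0.094, overlapped with T0, and without it the adjusted p of the exact test was 0.0417. *Dgkz* had the largest change of the family in 7 of 12 nodal libraries. Of the paralogues, *Dgkb*, *Dgkg*, *Dgkk* and *Dgkq* were called higher in draining nodes, a share below the 51.7% of all genes, and none in nondraining nodes by limma. By group, *Dgkb* (with s_08423 alone among its sgRNAs) and *Dgkq* were called higher in draining IgG, *Dgkg* in draining anti-PD-1 and *Dgkd* in nondraining anti-PD-1.

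Anti-PD-1 was compared with IgG within each organ. As the mean over the 5 organs *Dgkz* differed by 0.14 (SE 0.29, limma adjusted p = 0.889), and 0.337% of genes were higher and 0.144% lower under anti-PD-1. Per organ the difference was 0.19 in the primary tumour, 0.80 in the lung, −0.76 in the liver, 0.29 in peritoneal metastases and 0.20 in the spleen, none past the threshold (adjusted p at least 0.456). In draining nodes it was −2.62 (SE 0.96, adjusted p = 0.176) and in nondraining nodes 2.32 (SE 0.96, adjusted p = 0.262), and the libraries of both treatments overlapped in each. Both nodal differences passed when 1 library was left out, the first without draining anti-PD-1 replicate 3 (−3.77, adjusted p = 0.0313) and the second without nondraining anti-PD-1 replicate 1 (3.59, adjusted p = 0.0206). The first also passed with centring on the nontargeting mean (−2.40, adjusted p = 0.0494) and with the median over sgRNAs (−6.23, adjusted p = 0.0193). In no organ was a DGK gene called between the treatments by limma, where 1.25% of genes were called higher and 0.433% lower in the lung, 0.385% in each direction in draining nodes, 0.241% and 0.0481% in nondraining nodes and 0 elsewhere. The largest difference over the 5 organs was that of *Dgkk*, at 0.88 (unadjusted p = 0.00984, adjusted p = 0.217), with 1.70 in the liver and 1.59 in the lung. Single sgRNAs of paralogues were called in the lung, where s_07764 of *Dgkg* was higher by 6.72 under anti-PD-1 and s_08676 of *Dgkd*, s_04539 of *Dgke* and s_09639 of *Dgki* were lower by limma (2.4% of sgRNAs called higher and 1.45% lower). s_09639 was also lower over the 5 organs (−1.86, adjusted p = 0.0211; 0.639% of sgRNAs called higher and 0.583% lower), and it and s_08423 of *Dgkb* were lower in draining nodes (3.71% called lower). At the level of the gene, the differences of *Dgkd* and *Dgkg* in the lung were −1.63 and 1.96 (adjusted p = 0.169 and 0.151).

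The organs were also compared with each other, without T0. No difference of *Dgkz* among the 5 organs outside the nodes passed in limma's moderated F-test (adjusted p = 0.930), and its organ changes lay between 1.18 and 1.71 with standard errors of 0.49 to 0.58. *Dgkd* (adjusted p = 0.0278) and *Dgkg* (adjusted p = 0.0301) did differ, as did 3.71% of all genes, with their lowest mean in the lung. Both calls ended with centring on the nontargeting mean, where 0.433% of genes differed. The deposited values had been adjusted for batch between organs, and the part of that adjustment in these comparisons was not tested.

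The genes whose changes over the 10 groups outside the nodes were closest to those of *Dgkz*, by root mean square difference, were *Pik3r1* (0.771), *B3gnt2* (0.790), *Cept1* (0.993), *Pigv* (1.03) and *Cyb5rl* (1.11), where the median over all genes was 2.15. Over the 5 organs *Cept1*, which makes phosphatidylcholine and phosphatidylethanolamine from diacylglycerol, had a change of 0.69, *Pigv*, a mannosyltransferase of glycosylphosphatidylinositol anchors, of 0.62 and *Cyb5rl* of 0.51, and none of these 3 passed. Among the paralogues *Dgka* was closest at 1.43 and *Dgkd* farthest at 2.98.

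Other genes that make or use diacylglycerol and phosphatidic acid were counted from a list of which the library holds 44 members. Over the 5 organs 0 were called higher, 3 were called lower (6.82%, beside 17.7% of all genes) and 41 did not pass, with a median change of −0.38 beside −0.55 for all genes. *Plcg1*, which encodes the phospholipase Cγ1 that releases diacylglycerol after T cell receptor engagement, fell by 1.54 (SE 0.53, limma adjusted p = 0.0368). *Cds2* and *Cdipt*, which turn phosphatidic acid into CDP-diacylglycerol and then phosphatidylinositol, fell by 4.22 (SE 0.68) and 5.79 (SE 0.48), with adjusted p = 7.22e-06 and 2.71e-11. *Cds1*, the paralogue of *Cds2*, had a change of −0.15 (adjusted p = 0.824).

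*Cds2* and *Cdipt* were the members called lower in each of the primary tumour, liver, peritoneal metastases and spleen, with *Cds2* between −3.79 and −4.43 and *Cdipt* between −5.22 and −6.21. These 2 of 44 (4.55%) stood beside 15.1%, 13.3%, 16.5% and 15.7% of all genes called lower in these organs. In the lung 11 of 44 were called lower beside 35.4% of all genes, and 9 (20.5%) were called there and in no other of the 5 organs, as were 17.9% of all genes. The 9 were *Plcb2*, *Plcd1*, *Plcg1*, *Pld1*, *Agpat4*, *Agpat5*, *Gpat4*, *Plpp3* and *Chpt1*, with changes between −1.51 and −2.20. By role, the median change over the 5 organs was −0.41 for the 13 phospholipases C, −0.50 for the 12 genes of phosphatidic acid synthesis, −0.20 for the 6 phosphatidic acid phosphatases and −0.19 for the 8 genes that use diacylglycerol. In draining nodes 28 of 44 were called higher beside 51.7% of all genes, and in nondraining nodes 6 of 44 beside 7.07%.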

How the data were processed

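Reads were assigned to sgRNAs with MAGeCK by the authors, scaled to the nontargeting sgRNAs and adjusted for batch between organs with ComBat, and the deposited values are this signal. They are no longer whole reads, so the read depth is unknown and no counting interval is given. Settings of ComBat were not given in the sources used here. Samples were grouped by title, and library totals of the signal ran from 1788300 to 4228882.

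The members and gene lists were chosen with earlier results of these data known, and no p-value was adjusted over the family alone. limma 3.58.1 in R 4.3.3 fitted 1 mean per group to gene levels, with 29 libraries (T0 and the organs outside the nodes) for those organs and all 41 for the nodes, because the nodal libraries have a larger spread (prior variance 1.55 with all libraries against 0.669 without the nodes). Organ values are means of both treatments. sgRNAs were fitted in the same way. Exact permutation tests used scipy 1.17.1. On simulated data with 200 of 2078 genes changed and each gene's own spread, the fit over the 5 organs recovered 44 of 100 genes changed by log2 1.5 and 99 of 100 changed by log2 3, and 5 of 1878 unchanged genes were called. With all 41 libraries it recovered 11 and 78. The simulated noise was normal and independent between libraries. In the data, libraries of the same treatment and number correlate and many values share a lowest value, so these counts belong to a simpler setting.

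The text names every DGK gene, list genes past the threshold and the 5 genes closest to *Dgkz*. *Pik3cd* and *Cds1* were named after their values were seen. Sequences and positions of the sgRNAs are not used here, since the table lists sgRNAs by identifier. The alternatives were log2(value + 10), 3 other centrings (all sgRNAs, nontargeting mean, values as deposited), the median over sgRNAs, the lowest 10% of sgRNAs left out, shared lowest values set to 0, other sets of libraries, the replicate number as a block, and each library left out. Leaving out each *Dgkz* sgRNA or each library in the test between organs, and a random block of treatment and number, were added after seeing the data.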

Additional observations from a re-analysis of the deposited data

Results flagged for a closer look

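*Dgkd* and *Dgkg* were the 2 DGK genes whose level differed among primary tumour, lung, liver, peritoneal metastases and spleen, which singled them out (limma moderated F-test, adjusted p = 0.0278 and 0.0301, with 3.71% of all genes past the threshold and 501 genes at an unadjusted p under 0.05). Against T0, *Dgkd* had changes of −2.74 in the lung, −1.28 in the spleen, −1.24 in the liver, −0.81 in peritoneal metastases and −0.49 in the primary tumour, and *Dgkg* had −2.63, −1.29, −0.28, −0.58 and −0.27. The lung libraries also had fewer sgRNAs above the shared lowest value, 72.7% under IgG and 80.5% under anti-PD-1, than the primary tumour libraries with 96.7% and 96.3%, and the part of this in the result was not tested. The same holds for the batch adjustment between organs in the deposited values. Without lung IgG replicate 2 the adjusted p was 0.0695 for *Dgkd* and 0.0886 for *Dgkg*, without lung anti-PD-1 replicate 3 it was 0.0532 and 0.0610, and without primary tumour anti-PD-1 replicate 3 it was 0.0528 and 0.0583. *Dgkd* alone missed the threshold without lung anti-PD-1 replicate 2 (0.0574). *Dgkg* alone missed it without primary tumour IgG replicate 1 (0.0542) or 3 (0.0624) or anti-PD-1 replicate 1 (0.0544).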

How the results depend on the processing

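Of 783 recomputed values that answer a comparison, 687 were unchanged, and of 1561 others 1405 were. A tested change was unchanged if it kept its direction and its side of the threshold. A count or a rank, which has neither, was unchanged if it stayed within a set factor of its main value. The causes of the changes were not tested, except where fewer libraries or sgRNAs entered. The rank of *Dgkz* over the 5 organs was 3 or 4 under 11 settings. The other centrings and the other sets of libraries among them leave the order of the genes as it was, so they could not move it.

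With values as deposited, no change of *Dgkz* outside the nodes passed (0.90 over the 5 organs, 1.19 in the primary tumour, 0.89 in the lung, 1.03 in peritoneal metastases and 1.22 in the spleen), liver anti-PD-1 turned to −0.33, and the nodes turned to −2.33 (draining, −1.09 under IgG and −3.58 under anti-PD-1) and −3.19 (nondraining, −4.33 and −2.05). *Dgka* turned to −0.44, 3 paralogues were called lower and 8 list genes were. With all libraries in 1 fit the values were unchanged and not past the threshold (1.48 over the 5 organs, 1.50, 1.54, 1.49 and 1.71 in primary tumour, lung, peritoneal metastases and spleen). With only the groups compared, the lung (1.54) and the nodes (4.92 and 4.17) did not pass and the liver did (1.18). Centring on the nontargeting mean ended the call in nondraining nodes (2.45), as did the median over sgRNAs (2.85). Without the lowest 10% of sgRNAs the primary tumour (1.50) and peritoneal metastases (1.49) did not pass and 1 list gene was called lower. Peritoneal metastases also missed with shared lowest values at 0 (1.49).

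Without s_07376, s_07377 or s_07378 peritoneal metastases did not pass (1.31, 1.39 and 1.40), without s_07378 or s_07380 the primary tumour did not (1.52 and 1.31), and without s_07378 the lung did not (1.21). The count of paralogues called lower was 0 with log2(value + 10), either other centring, the median over sgRNAs, the filter or all libraries. With the median over sgRNAs the *Dgkz* minus paralogue difference no longer passed after adjustment (1.61 in primary tumour, 2.46 in lung, 1.74 in peritoneal metastases, 1.96 in spleen and 2.08 in nondraining nodes). In the primary tumour, lung, spleen and peritoneal metastases the exact p itself stayed at the smallest possible, and the adjustment over organs grew because nondraining nodes dropped out. The count of DGK genes that differed between organs was 10 over all 7 organs, where 98.4% of genes did, and 0 with the nontargeting mean. Of values near 0, *Dgkk* over the 5 organs turned to 0.077 (log2(value + 10)), 0.34 (all sgRNAs), 0.37 (nontargeting mean) and 0.39 (median over sgRNAs), *Dgki* to 0.20, 0.23 and 0.22 under the last 3 and *Dgkb* to 0.18 under the last, and anti-PD-1 minus IgG of *Dgkz* in the spleen to −0.20 under the last.

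Leaving out each library in turn gave ranges for *Dgkz* of 1.33 to 1.68 over the 5 organs, 1.35 to 1.70 in the primary tumour, 1.32 to 1.77 in the lung, 1.20 to 1.78 in peritoneal metastases and 1.55 to 1.90 in the spleen. For the *Dgkz* minus paralogue difference they were 1.47 to 1.84 in the primary tumour, 2.79 to 3.18 in the lung, 1.82 to 2.19 in peritoneal metastases, 2.26 to 2.68 in the spleen, 2.87 to 3.82 in draining and 1.93 to 2.96 in nondraining nodes. Paralogues called lower ranged from 0 to 2 and DGK genes that differed between organs from 0 to 3. Over the 5 organs *Dgka* ranged from −0.023 to 0.32 and *Dgkk* from −0.11 to 0.023, and anti-PD-1 minus IgG of *Dgkz* from −0.061 to 0.43 in the primary tumour, −0.29 to 0.87 in peritoneal metastases and −0.094 to 0.43 in the spleen.

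The replicate numbers gave no sign of pairing T0 with the organs or one treatment with the other. Of 77 pairs with the same number and another treatment or T0, 5 correlated above 0.1 in their deviations from the group means. The values had already been adjusted for batch and each group mean rests on few libraries, so this check cannot exclude such pairing. Within a treatment, libraries of the same number go together, with 34 of 41 pairs above 0.1 (0.038 to 0.269) against 0 of 80 with different numbers. Deviations within a group sum to 0, so these counts are not independent of each other. Between liver IgG and peritoneal metastases IgG the pairs repeat the same correlation. The paper reports that all these organs were collected from the mice when they were killed. Which mice stand behind each library is not given in the sources used here, and the part of shared mice in these correlations was not tested. With each treatment and number as a random block, chosen after seeing the data (consensus correlation 0.133), no call of *Dgkz* against T0 changed, and the value over the 5 organs was 1.47 (limma adjusted p = 0.0127). With the number alone as a fixed replicate block the call for *Dgkz* in peritoneal metastases ended (1.47, limma adjusted p = 0.0518), and the count of genes that differed between organs was 79 against 77. Depth is unknown, and in the nodes most sgRNAs are at their lowest value.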
